A study of Mus musculus with 3 samples.

Results

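The 10 genes described here encode transcription factors of the secretory lineage of the intestinal epithelium: Atoh1, Gfi1, Gfi1b, Spdef, Klf4, Foxa1, Foxa2, Foxa3, Creb3l1 and Spib. They were taken as a named list and matched by gene symbol in the array's annotation, which found all 10 among 20738 named genes. Foxa2 was measured by 2 features (spots of the array) and each of the other 9 genes by 1. RNA of whole proximal jejunum from Sox4 knockout mice, labelled vilCre (a Cre recombinase under the villin promoter, active in intestinal epithelium), was set against wild-type jejunum on 3 arrays with 2 colours. On each array Cy5 marked the RNA of a different knockout mouse and Cy3 marked wild-type RNA. The labels used here give no age, strain or sex, and do not state whether the Cy3 RNA came from a pool and whether wild-type mice carried Cre.

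The epithelium of the small intestine renews itself from stem cells in the crypts, and its progenitors become either absorptive enterocytes or secretory cells. Where Notch signalling is low, the bHLH factor Atoh1 is expressed and opens the secretory fate, which leads to mucus-making goblet cells, antimicrobial Paneth cells, hormone-making enteroendocrine cells and, in part, chemosensory tuft cells. Gfi1 acts below Atoh1 and holds back the endocrine programme, Spdef and Klf4 promote goblet cell maturation, and the forkhead factors Foxa1 and Foxa2 take part in goblet and endocrine differentiation. Gfi1b is used as a tuft cell gene in the epithelium, Creb3l1 serves secretory capacity, and Spib is required for M cells, which carry antigen across the epithelium. Several of these genes are also active outside the secretory lineage. Gfi1b is active in erythroid, megakaryocyte and mast cells, Spib in B cells and plasmacytoid dendritic cells, and Klf4 in enterocytes and stromal cells.

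None of the 10 factors passed the test of knockout against wild type, which 0.328% of all genes passed. The lowest means were those of Klf4 and Spdef, with linear ratios 1.66-fold and 1.64-fold lower in the knockout, and both genes lay below wild type on all 3 arrays. Foxa1 and Foxa2 were also below wild type on all 3 arrays, at 1.27-fold and 1.29-fold lower. The other 6 factors had mixed signs, and for Gfi1b and Spib the arrays stood far apart.

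The promoters of the 3 factors with the smallest p-values, Klf4, Spdef and Foxa1, are shown, although none of the 3 passed the test. Foxa2 also lay below 0 on all 3 arrays. Sox letters were searched because the study removed a Sox factor, and a link between letters and ratios was not tested. Each sequence is the 250 bases before the transcription start, 5′ to 3′ on the gene's strand, from RefSeq with build GRCm38.p6. Capitals mark matches on either strand to ACAAAG (a core recognised by Sox factors), to TGTTTAC (a forkhead core) or to CAGCTG (an E-box of the kind bound by bHLH factors). The Klf4 window lies at chr4:55532476-55532725 on the minus strand, the Spdef window at chr17:27728952-27729201 on the minus strand and the Foxa1 window at chr12:57546112-57546361 on the minus strand.
Klf4: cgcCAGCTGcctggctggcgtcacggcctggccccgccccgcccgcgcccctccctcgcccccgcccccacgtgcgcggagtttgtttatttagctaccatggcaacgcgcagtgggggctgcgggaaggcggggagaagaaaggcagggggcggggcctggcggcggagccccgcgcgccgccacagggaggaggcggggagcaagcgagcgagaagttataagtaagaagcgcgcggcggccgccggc
Spdef: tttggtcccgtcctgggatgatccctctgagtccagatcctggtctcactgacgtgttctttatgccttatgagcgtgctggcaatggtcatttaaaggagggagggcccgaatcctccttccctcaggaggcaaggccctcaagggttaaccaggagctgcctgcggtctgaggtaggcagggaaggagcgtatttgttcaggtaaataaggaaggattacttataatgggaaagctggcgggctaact
Foxa1: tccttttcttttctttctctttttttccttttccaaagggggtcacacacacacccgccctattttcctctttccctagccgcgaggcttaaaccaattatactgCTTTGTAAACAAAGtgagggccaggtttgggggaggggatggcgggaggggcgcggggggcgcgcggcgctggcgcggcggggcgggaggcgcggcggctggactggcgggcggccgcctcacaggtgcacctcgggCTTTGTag

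The Foxa1 window held 3 matches to ACAAAG. A pair of them lay in opposite orientation around a forkhead match, from -145 to -140 and from -137 to -132 counted from the start, and shared 2 and 3 bases with the forkhead match at -141 to -135. The third ran from -8 to -3. Of 32851 promoter windows of the same length, 16.5% held ACAAAG at least once and 0.137% held it 3 times or more. It was there 3 times or more together with the forkhead letters in 6 windows, that of Foxa1 among them. These last 2 cuts match the content of the Foxa1 window itself, so their rarity is a description and no test. The forkhead letters alone were in 3.17% of windows and the E-box in 13%. The Spdef window had no match to any of these letters, and the Klf4 window had the E-box only, at -247 to -242. A window was matched for 9 of the 10 factors, 12 windows in all, and 1 of the 3 Foxa2 windows held ACAAAG. Of these 12 windows, 2 held ACAAAG, beside 16.5% of all windows. The forkhead letters were in 1 of the 12 and the E-box in 1, beside 3.17% and 13%. No match to any of the 3 was found in 9 of the 12, and the share of all windows without a match was not counted. These matches describe the letters in the window and no binding was measured.

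**Figure D1:**
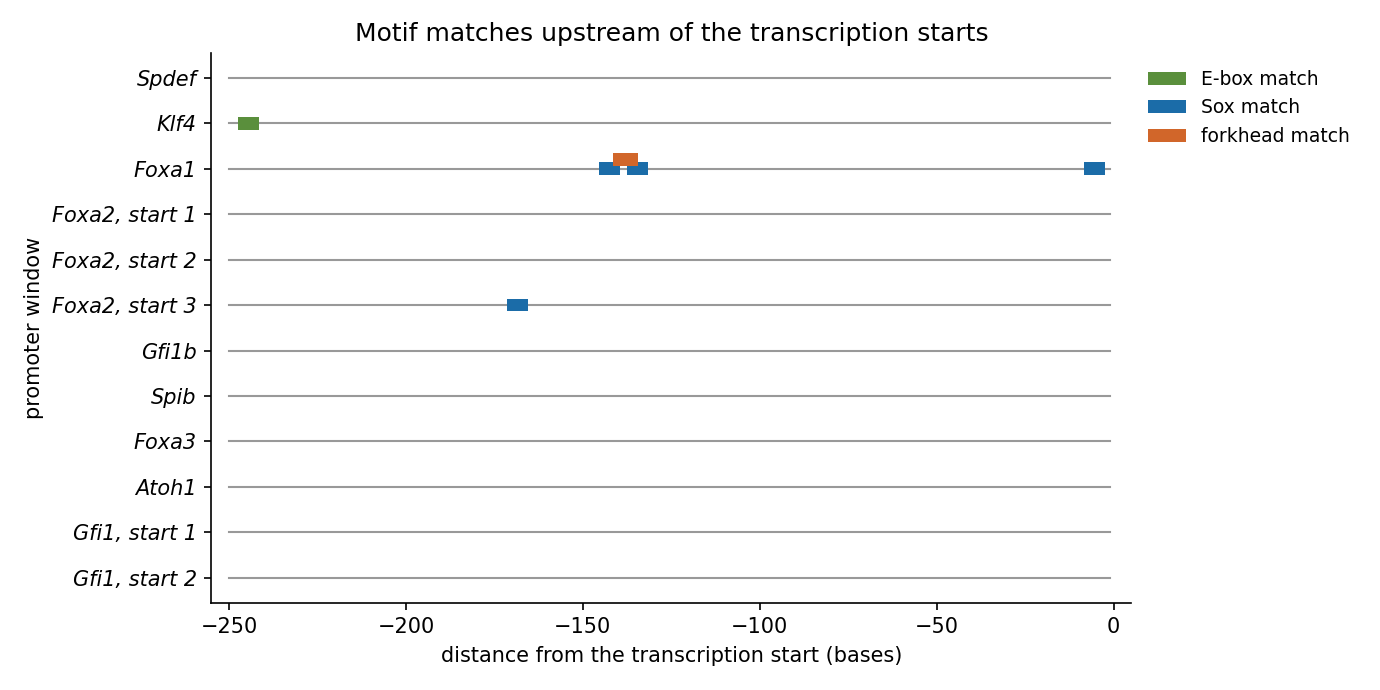
Motif matches in the 12 promoter windows of 9 factors. The x axis is the distance in bases from the transcription start, each line is 1 window of 250 bases, and coloured bars are matches to ACAAAG (Sox), TGTTTAC (forkhead) and CAGCTG (E-box), with the forkhead bar raised so that overlaps show. Foxa1 carries 3 Sox matches and the forkhead match, and 9 windows are empty.

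Each value is a log2 ratio of the dye channels of 1 array, read here as knockout over wild type. That direction is likely and not certain: the labels give the dyes, and the ratio was taken as Cy5 over Cy3, the usual order for this kind of array, so that every sign would turn under the opposite order. A value below 0 means less RNA in the knockout. Because ratios carry no level, no factor can be ranked by abundance, and features near background could not be told from bright ones. In whole tissue, fewer cells of a type and less RNA per cell cannot be told apart. The targeted gene was a weak check of the labels. The mean of the Sox4 features was -0.66, 0.18 and -0.46 on arrays 1, 2 and 3, so by that mean the array 2 library labelled Sox4 knockout was above wild type, although 1 of the 3 Sox4 features was below 0 on every array, at -1.21, -0.72 and -0.93. Where these features lie in relation to the deletion was not analysed here. Xist, the RNA of the inactive X chromosome, was higher in the knockout (1.71 ± 0.18, SD, n = 3, limma adjusted p = 0.0208) and the Y-linked gene Eif2s3y lower (-7.28 ± 0.25, limma adjusted p = 0.000252), so sex and genotype cannot be told apart in any value given here. Eif2s3y passed whichever array was left out, and Xist lost the call without array 1 (limma adjusted p = 0.167) and without array 3 (limma adjusted p = 0.174).

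Across all genes, limma's test of the mean ratio against 0, with Benjamini-Hochberg adjustment over 20738 genes, called 68 genes at an adjusted p of 0.05, which is 0.328% of those tested, and 0 of the 10 factors. Without adjustment, 4 of the 10 factors had a p under 0.05, all lower in the knockout (Klf4, Spdef, Foxa1 and Foxa2), where 14.3% of all genes were lower by the same measure and 26.3% passed it in either direction. The same 4 were the factors below 0 on all 3 arrays, which 27.3% of all genes were, and 0 of the 10 were above 0 on all 3 arrays, which 23.2% of all genes were. The median of the 10 means was -0.30, beside -0.03 over all genes, and 9 of the 10 means were below 0, beside 53.6% of all genes. No test was made over the list.

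**Figure D2:**
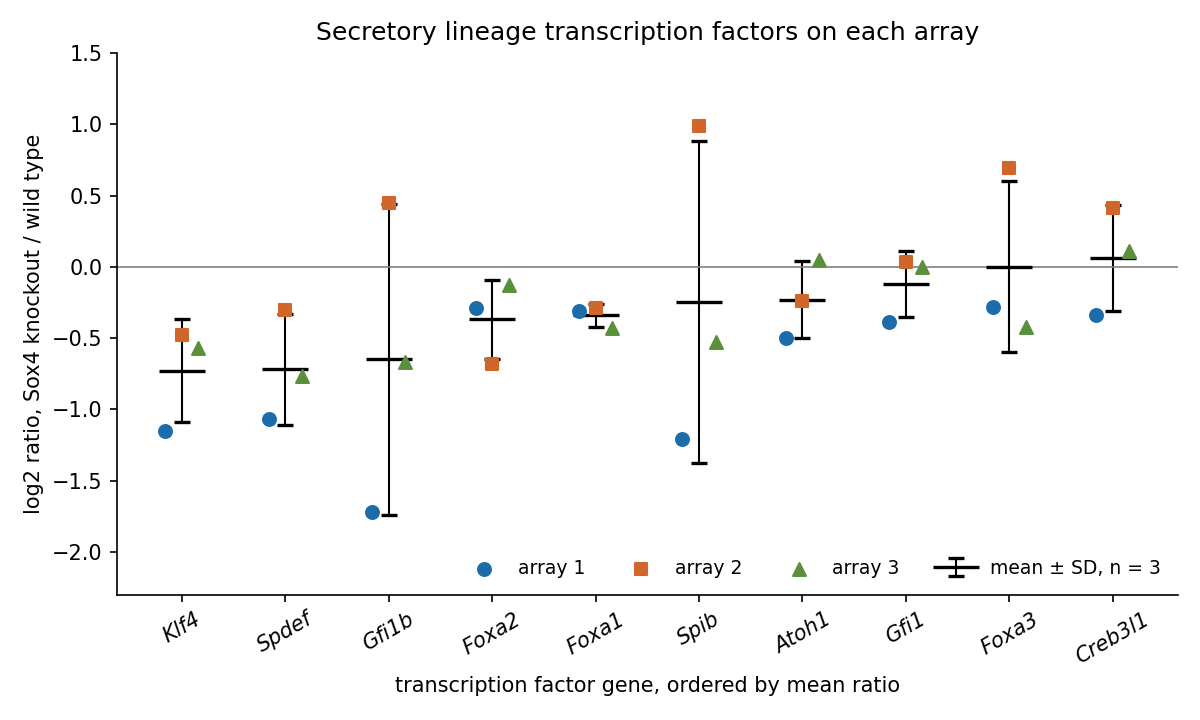
Log2 ratio of knockout over wild type for each factor on arrays 1 (circles), 2 (squares) and 3 (triangles), with the mean and SD over the 3 arrays as a bar and whiskers; factors are ordered along the x axis by mean. Klf4, Spdef, Foxa2 and Foxa1 lie below 0 on every array, while Gfi1b and Spib run from -1.72 to 0.45 and from -1.21 to 0.99.

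Spdef, an ETS factor that drives goblet and Paneth cell maturation, had ratios of -1.07, -0.30 and -0.77 on arrays 1, 2 and 3. All 3 arrays were below wild type, and array 2 was the nearest to it. The mean was -0.72 ± 0.39 (SD, n = 3), with a 95% interval of -1.15 to -0.28 from limma and an adjusted p of 0.0921. Of all genes, 2.93% had a mean this low or lower.

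Klf4, a zinc finger factor of goblet cells that is also active in differentiated enterocytes, had ratios of -1.15, -0.48 and -0.57. Array 1 was about as low as for Spdef, and arrays 2 and 3 were close to each other. The mean was -0.73 ± 0.36 (SD, n = 3, 95% interval -1.15 to -0.32, limma adjusted p = 0.0863), the lowest of the 10 means and the smallest p of the 10, at rank 1334 of all genes. Klf4 and Spdef differed on the same arrays by 0.02 ± 0.19, less than the spread of that difference.

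Atoh1, the factor at the head of the secretory lineage, had ratios of -0.50, -0.24 and 0.05. The arrays lay on both sides of 0, and the mean was -0.23 ± 0.27 (SD, n = 3, 95% interval -0.59 to 0.13, limma adjusted p = 0.354). Gfi1, the Atoh1 target that represses the endocrine programme, had -0.39, 0.03 and -0.00. Arrays 2 and 3 were at wild type, and the interval of its mean ran from -0.46 to 0.21 (limma adjusted p = 0.589). These intervals bound the size of a change on these arrays and do not show that either gene stayed the same.

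The forkhead factors Foxa1, Foxa2 and Foxa3 share a DNA-binding domain and open closed chromatin in endodermal organs. Foxa1 had ratios of -0.31, -0.29 and -0.43, the closest agreement between arrays among the 10. Its mean was -0.34 ± 0.08 (SD, n = 3, 95% interval -0.62 to -0.06, limma adjusted p = 0.139), and 90.2% of all genes had an SD at least as large. Foxa2 had -0.29, -0.68 and -0.13, lowest on array 2, with a mean of -0.37 ± 0.28 (SD, n = 3, limma adjusted p = 0.189). Its 2 features ran in parallel, at -0.32, -0.75 and -0.17 for the first and at -0.25, -0.61 and -0.09 for the second, so the order of the arrays was shared by both.

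Foxa3 had ratios of -0.28, 0.69 and -0.42. Arrays 1 and 3 were below wild type and array 2 above it, which left a mean of -0.00 ± 0.60 (SD, n = 3, 95% interval -0.59 to 0.58, limma adjusted p = 0.991). Set against Foxa1 on the same arrays, Foxa3 differed by 0.03 on array 1 and 0.01 on array 3, and by 0.97 on array 2. The mean difference was 0.34 ± 0.55 (SD, n = 3, two-sided exact sign-flip permutation p = 0.25). This is the smallest p that 3 arrays allow in that test.

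Gfi1b, the zinc finger relative of Gfi1 used as a tuft cell gene, had ratios of -1.72, 0.45 and -0.67. Array 1 held the lowest single ratio of the 10 factors, and array 2 was above wild type. The mean was -0.65 ± 1.09 (SD, n = 3, 95% interval -1.63 to 0.34, limma adjusted p = 0.34), and 0.873% of all genes had an SD at least as large. Without array 2 the mean was -1.20, and without array 1 it was -0.11. Gfi1b and Gfi1 differed on the same arrays by 0.52 ± 0.89, with Gfi1 higher on arrays 1 and 3 and lower on array 2.

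Spib, the ETS factor of M cells, B cells and plasmacytoid dendritic cells, had ratios of -1.21, 0.99 and -0.53. The order of the arrays was that of Gfi1b, with array 2 at the highest single ratio of the 10 factors. Its mean was -0.25 ± 1.13 (SD, n = 3, 95% interval -1.27 to 0.77, limma adjusted p = 0.72), with 0.786% of all genes having an SD at least as large. The mean was 0.23 without array 1 and -0.87 without array 2. Creb3l1, a membrane-bound factor that is released by cleavage and raises secretory capacity, had -0.34, 0.41 and 0.11, the only mean above 0 of the 10, at 0.06 ± 0.37 (SD, n = 3, 95% interval -0.36 to 0.48, limma adjusted p = 0.838). Its mean turned to -0.19 when arrays were centred on reference genes and to -0.03 with array weights, and that of Foxa3 turned to 0.01 when each array was centred on its median.

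From lowest to highest mean the order was Klf4, Spdef, Gfi1b, Foxa2, Foxa1, Spib, Atoh1, Gfi1, Foxa3 and Creb3l1. In each of the 9 neighbouring pairs the mean difference on the same arrays was smaller than its SD, so no single step in this order exceeded the spread between arrays. Over all 45 pairs, the mean difference exceeded its SD in 12, and in 11 of these the sign was the same on every array. The same count was not made over pairs of all genes. The pairs named next were picked after their values were seen. Klf4 and Spdef stood below Atoh1, Gfi1, Foxa3 and Creb3l1 on each array. Creb3l1 was above Klf4 by 0.81, 0.89 and 0.68 on arrays 1, 2 and 3 (0.79 ± 0.10, SD, n = 3) and above Spdef by 0.74, 0.71 and 0.88 (0.78 ± 0.09, SD, n = 3). Gfi1 was above Klf4 by 0.76, 0.50 and 0.57. These pairs are described without a test, since 3 arrays allow no p-value under 0.25 in the exact sign-flip test.

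**Figure D3:**
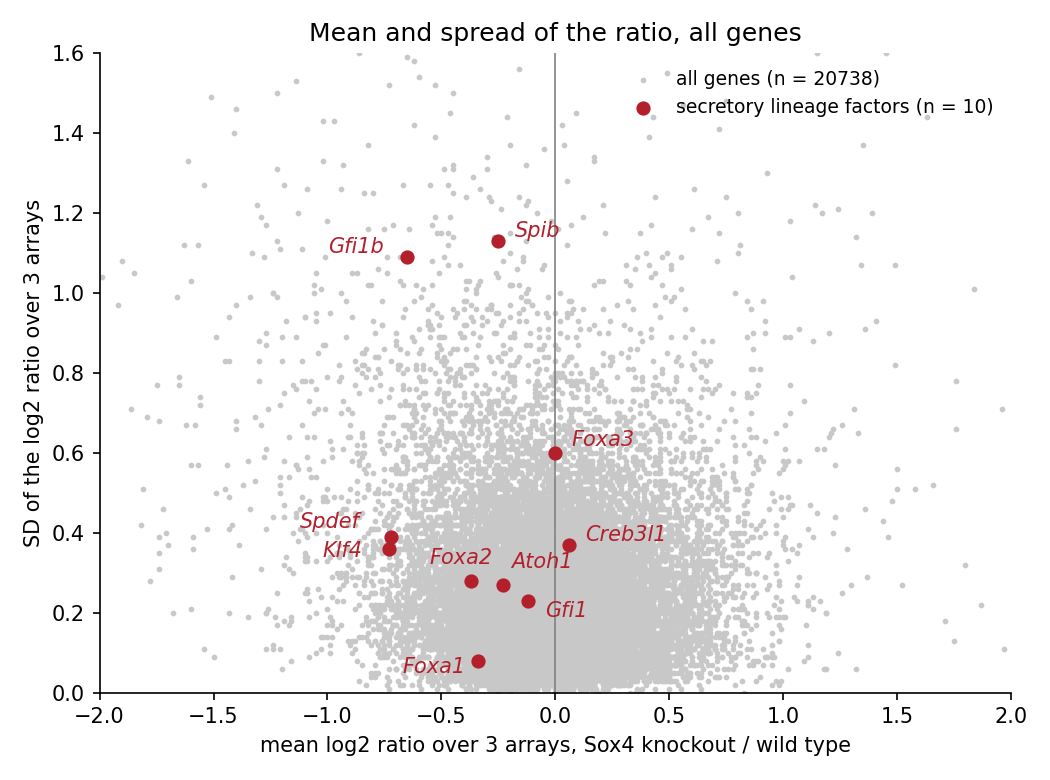
Mean log2 ratio over the 3 arrays (x axis) against its SD (y axis) for all genes (grey points) and the 10 factors (red points, named). Klf4 and Spdef lie at the low edge of the cloud with a moderate SD, Foxa1 lies low in SD, and Gfi1b and Spib stand above the cloud; 72 genes lie beyond the axes.

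The SD over the arrays had a median of 0.369 among the 10 factors, beside 0.217 over all genes, and array 2 was the one that most often stood apart. Array 2 held the highest ratio of 8 of the 10 factors, beside 33.9% of all genes, and Gfi1b, Foxa3 and Spib were above 0 on array 2 and below 0 on arrays 1 and 3. By sign alone Gfi1 also had that pattern, with 0.03 on array 2 and -0.00 on array 3, which makes 4 of the 10, beside 8.41% of all genes. The difference between array 2 and the mean of arrays 1 and 3 was 1.86 for Spib, 1.65 for Gfi1b and 1.04 for Foxa3. Of all genes, 0.386%, 0.521% and 2.02% had a difference at least as large. It was 0.62 for Spdef and 0.38 for Klf4, and Foxa2 went the other way at -0.47. The Sox4 mean of 0.18 given above was also from array 2.

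Some lists of cell type markers had the same order of arrays. Tuft cell genes had medians of -0.98, 0.01 and -0.35 on arrays 1, 2 and 3 over 14 measured genes, 12 of them highest on array 2, and the erythroid, megakaryocyte and mast cell list had -1.36, -0.08 and -0.86 over 17 genes. Gfi1b is expressed in the cells of both lists, and the part of these cells in its ratio was not tested. Goblet cell products had medians of -0.14, 0.86 and -0.10 over 15 genes, Paneth cell products -0.23, 1.04 and 0.08 over 8, and fibroblast and smooth muscle genes -0.50, 0.40 and -0.24 over 8, with array 2 highest in each. Array 2 was also highest for general epithelial genes, with -0.03, 0.33 and 0.15 over 7, and for enterocyte genes, with 0.05, 0.18 and -0.12 over 10. Over all genes the medians were -0.03, -0.03 and -0.00. The SDs over all genes were 0.47, 0.5 and 0.46, and the array weights from limma were 1.44, 0.69 and 1.01, lowest for array 2. The list of B cell and plasmacytoid dendritic cell genes had medians of 0.35, 0.10 and 0.28 over 9 genes, and M cell genes 0.10, 0.18 and 0.23 over 10. Neither median had the order seen for Spib, but single genes differed. Array 2 was highest for 3 of the 9 and for 5 of the 10. The part of these cells in the ratios of Spib was not tested.

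The fat cell list had a low median on every array, and haemoglobin genes of the erythroid, megakaryocyte and mast cell list were also low on each. Of 6 fat cell genes 4 fell and 0 rose, with list medians of -2.08, -2.22 and -2.01, led by the adipsin gene Cfd (-5.95 ± 0.65) and the adiponectin gene Adipoq (-4.68 ± 0.41), which lost the call without array 3, with Plin1 and Retn, which lost it without array 1 and without array 3. Of the 17 erythroid, megakaryocyte and mast cell genes 2 fell and 0 rose, the haemoglobin genes Hbb-bt (-1.59 ± 0.39) and Hbb-bs (-1.23 ± 0.19), which lost it whichever array was left out. All 17 means of this list were below 0. The lowest were those of the mast cell genes Fcer1a and Cpa3, chosen after their values were seen. Fcer1a had ratios of -4.20, -0.57 and -3.50 (limma adjusted p = 0.0935) and Cpa3 -3.99, 0.03 and -3.08 (limma adjusted p = 0.133). The fat cell genes and haemoglobin genes that fell were below 0 on every array, as were Klf4, Spdef, Foxa1 and Foxa2, and their part in the ratios of the factors was not tested.

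**Figure D4:**
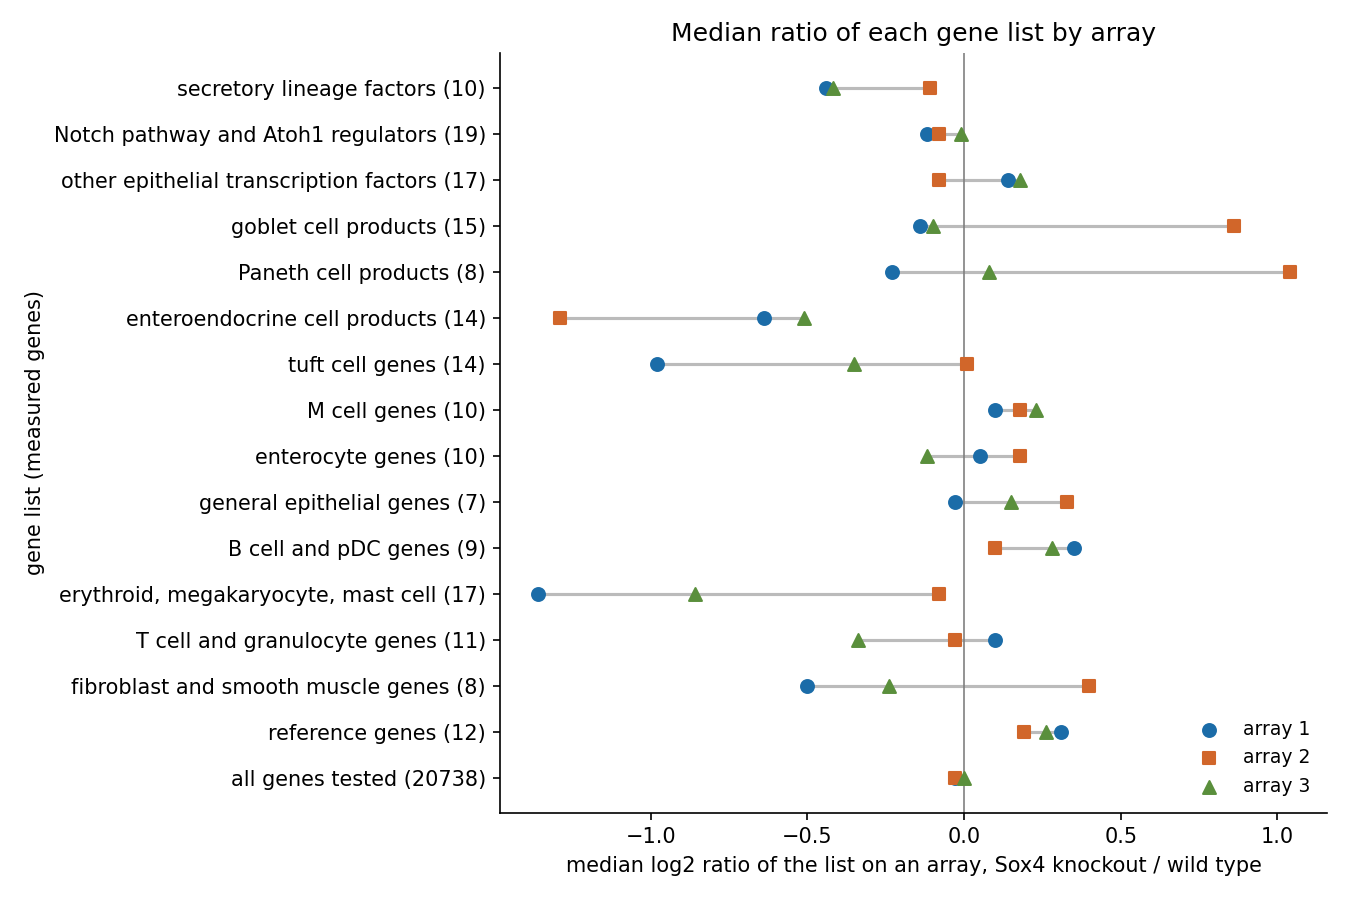
Median log2 ratio of each gene list on arrays 1 (circles), 2 (squares) and 3 (triangles), with the number of measured genes in brackets and a grey line from the lowest to the highest array; the fat cell and sex-linked lists are not drawn because their medians lie far below the others. Among the lists with the highest median on array 2 are the goblet, Paneth, tuft, enterocyte, general epithelial, stromal and the erythroid, megakaryocyte and mast cell lists. Enteroendocrine products have their lowest there, at -1.29.

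The products of the cells that these factors specify had medians of either sign. Over all 20738 genes the median was -0.03, and 2487 genes were higher and 2964 lower at an unadjusted p under 0.05. Spdef and Klf4 had means of -0.72 and -0.73 while goblet cell products had a median of 0.02, with 0 of 15 passing limma's test (3 higher and 1 lower at an unadjusted p under 0.05). Among them the actin-severing protein gene Scin had -1.15 ± 0.30 (limma adjusted p = 0.0543) while the mucin gene Muc13 had ratios of 2.07, 0.95 and 1.47 (limma adjusted p = 0.0632). Muc2, the main goblet cell mucin, chosen after its value was seen, had 0.40 ± 0.48. Paneth cell products had a median of 0.20 with 0 of 8 past the test and 1 higher without adjustment, the defensin gene Defa5 at 0.69 ± 0.31. Of 14 enteroendocrine products 5 fell and 0 rose, led by Nts (neurotensin, -6.51 ± 0.32) and Gcg (proglucagon, -5.21 ± 0.14), the pair that passed whichever array was left out, with Cck, which lost the call without array 1 and without array 3, and Pyy and Scg2, which lost it whichever array was left out. Without adjustment 8 of the 14 were lower and 1 was higher. The higher gene, Ghrl (ghrelin), chosen after its value was seen, was above 0 on every array (0.68 ± 0.10, limma adjusted p = 0.0658). Of 10 M cell genes 1 rose, Pglyrp1 (1.26 ± 0.25, limma adjusted p = 0.0496), a peptidoglycan recognition protein gene also active in neutrophils. It did not pass with any array left out (limma adjusted p from 0.071 to 0.234 on 2 arrays). Gp2, an M cell receptor for bacteria, had 0.61 ± 0.23 (limma adjusted p = 0.084). Of 14 tuft cell genes 0 passed and 5 were lower without adjustment, with the regulator of G-protein signalling gene Rgs13 at -2.40 ± 0.81.

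Genes that act above or beside the factors were read from fixed lists too. Of 19 genes of the Notch pathway and of Atoh1 regulation 0 passed, and 4 were higher and 2 lower without adjustment. By that measure 14.3% of all genes were lower and 26.3% passed in either direction. Lfng, which modifies Notch receptors, had 0.97 ± 0.24 (limma adjusted p = 0.0621), and the Notch feedback gene Nrarp had 0.45 ± 0.18 (limma adjusted p = 0.111). Of 17 other transcription factors of the intestinal epithelium 0 passed, with 4 higher and 1 lower without adjustment. Of the 17 means 11 were above 0, beside 1 of the 10 secretory factors and 9623 of all 20738 genes. Elf3, an epithelial ETS factor, had 0.88 ± 0.08 (limma adjusted p = 0.0543), Klf5, a relative of Klf4 in crypt cells, 0.64 ± 0.21 (limma adjusted p = 0.0774), and the endocrine factor gene Isl1 -1.21 ± 0.50 (limma adjusted p = 0.0663). The difference between these lists was not tested.

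Likeness between genes was measured as the root mean square difference of the 3 ratios, over 190 other genes of the lists. Spdef lay nearest to the tuft cell cytokine gene Il25, at 0.11 on the log2 scale, then to Klf4 at 0.16 and to the fat cell gene Fabp4 at 0.27. Klf4 lay nearest to Fabp4 at 0.15, Spdef at 0.16 and the tubulin gene Tuba1a at 0.17. Foxa1 lay nearest to the protease gene Adam10 at 0.08, to Rbpj, the DNA-binding partner of Notch, at 0.09 and to Fabp1 at 0.12. Of all genes, 12 lay as near to Spdef as Il25 did, 46 as near to Klf4 as Spdef did, and 162 as near to Foxa1 as Adam10 did.

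The absence of calls among the factors depends on where 0 is set. Reference genes had medians of 0.31, 0.19 and 0.26 on the 3 arrays, and when each array was centred on them, the median of all gene means moved to -0.28 and 4 factors were called lower (Klf4, Spdef, Foxa1 and Foxa2, limma adjusted p from 0.0307 to 0.0378), together with 20.1% of all genes called lower and 0.989% called higher. When each array was left out in turn, 0 of the 10 factors were called, and Klf4, Spdef, Foxa1 and Foxa2 kept means below 0. The mean of Foxa2 was -0.21 without array 2, and that of Atoh1 was -0.10 without array 1 and -0.37 without array 3.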

How the data were processed

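RNA was extracted with a Qiagen RNeasy kit, per the labels. The authors deposited log2 ratios for 62976 features on each of 3 arrays; how they corrected, normalized and filtered them, and the log base, is not given in the sources used here. The base was taken as 2, since ratios from -7.44 to 5.62 exclude base 10; under the natural logarithm each fold would be larger. Array medians were 0.007, 0.003 and 0.011, and ratios were used unscaled. The arrays correlated at 0.44 to 0.51. Their number limits the precision, and no dye swap separates dye from genotype. Whether the ratios hold spread between wild-type mice is not known, since the labels do not state whether the Cy3 RNA was pooled.

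Of 31465 features with a symbol, 29036 were named by RefSeq accession, and features of a gene were averaged. Means were tested with limma 3.58.1 (R 4.3.3; lmFit, eBayes, two-sided, 2 residual and 3.51 prior degrees of freedom), tested on simulated data; summaries and plots used Python 3.11.15 with numpy 2.4.6, pandas 2.3.3 and matplotlib 3.10.9.

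The factors, 16 gene lists and the motifs were chosen with earlier results of these data known. Lists held 192 entries, 181 of them measured. Every factor was named; from each list up to 4 genes with the smallest p could be named, and the 3 most like genes for the 3 factors with the smallest p. Alternatives were median features, 3 other scalings, original symbols, array weights, robust eBayes and leaving out each array.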

Additional observations from a re-analysis of the deposited data

How the results depend on the processing

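Centring on reference genes moved the count of genes called from 68 to 4382 (95.3% of them lower, against 67.6%), the count of factors called from 0 to 4, the median of the factors' means from -0.30 to -0.55, and turned Creb3l1 to -0.19. Array weights gave 265 genes (55.5% lower), 0 factors, and Creb3l1 at -0.03. Centring each array on its median turned Foxa3 to 0.01. Quantile normalization gave 100 genes (59% lower) and 0 factors. Leaving out 1 array gave 4 genes without array 3, 10 without array 1 and 66 without array 2, and 19 to 35 called features where all arrays gave 91. The median of the factors' means ran from -0.10 without array 1 to -0.36 without array 2, Gfi1 from -0.20 to 0.01, Foxa3 from -0.35 to 0.20, Spib from -0.87 to 0.23 and Creb3l1 from -0.11 to 0.26. The test was a comparison within arrays, since each ratio set knockout against wild type, and the labels used here give no other pairing. Klf4, Spdef, Gfi1b, Foxa1, Foxa2 and Atoh1 kept means below 0 in all 9 settings run for them. No intensities were used, so signal over background sets no limit that can be given.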
